A study of Homo sapiens with 24 samples.

Results

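Cells whose QKI gene had been targeted and that then received QKI7 without its KH domain (QKI7-dKH) were set against cells that received intact QKI7 (QKI7-WT), before any chase. The comparison takes 4 of the 24 libraries of the series, 2 per group, chosen by their labelled genotype and by a treatment time of 0 h, and covers all 12547 endogenous genes of the expression table. The cells are U2OS, a human osteosarcoma line grown in culture, and polyA RNA was sequenced. Both add-back groups carry the same QKI guide, sgQKI, and differ by label only in the QKI7 construct. The other genotypes at 0 h, with 2 libraries each, serve as context: sgQKI+EV, which has the QKI guide and EV (read as an empty vector), and sgNS+EV, which has the sgNS guide and EV. The remaining libraries come from the same 4 genotypes after 4 or 8 h of actinomycin D, which blocks transcription, together with sodium arsenite, an oxidative stressor. The sample annotation gives actinomycin D at 5 µg/mL and sodium arsenite at 200 µM for all 24 libraries, those at 0 h included. A time of 0 h was read here as before the chase. The labels do not say whether a line was 1 clone or a pool, how strongly the constructs were expressed as protein, or whether replicates were separate cultures, so the p-values measure the spread between libraries, which may be technical.

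QKI is an RNA-binding protein of the STAR family, in which a single KH domain, flanked by conserved QUA1 and QUA2 stretches, contacts RNA. It is known to act in alternative splicing, mRNA localisation, mRNA stability and circular RNA formation, and its splice isoforms, QKI7 among them, differ at the C-terminus. Its preferred RNA site, the QKI response element, joins a core with the letters ACUAAC or ACUAAU to a shorter partner site nearby with the letters UAAC or UAAU. The levels described below were taken before the chase, so they compare amounts of mRNA and not rates of decay.

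The QKI row served as the check of the labels. QKI signal, in the deposited spike-in-normalised unit, was 47.6 and 50.2 in the QKI7-dKH libraries, 60.4 and 46.3 in QKI7-WT, 36.0 and 32.7 in sgQKI+EV, and 60.0 and 48.2 in sgNS+EV. Both add-back groups therefore lay above sgQKI+EV in every library, and they overlapped each other. The difference of QKI7-dKH minus QKI7-WT was −0.11 log2 (SE 0.14, limma adjusted p = 0.587), and it turned to 0.08 without QKI7-WT replicate 1. In the chase libraries at 4 h QKI was 24.7 and 22.6 in QKI7-dKH against 50.5 and 32.8 in QKI7-WT, lower by 0.76 log2 on the deposited scale (limma adjusted p = 0.0117) and by 0.61 relative to the median gene (limma adjusted p = 0.029). At 8 h it was 17.8 and 19.1 in QKI7-dKH against 18.7 and 17.97 in QKI7-WT, and the groups overlapped. The row is counted per gene, so RNA of the targeted locus and of the construct cannot be separated, and it does not report whether the KH domain is present. METTL1 and WDR4, the enzyme pair that places m7G in RNA, and G3BP1, a core stress granule protein, differed by 0.13, 0.11 and 0.20 log2, and none passed the test (limma adjusted p = 0.497, 0.518 and 0.0886). METTL1 and WDR4 turned to −0.011 and −0.027 with scaling to library totals.

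Nearly all genes had a somewhat higher signal in QKI7-dKH. The median gene had a signal of 28.02 and 26.58 in the QKI7-dKH libraries, against 24.54 and 24.53 in both QKI7-WT libraries. Across all genes the median difference was 0.15 log2 (interquartile range 0.08 to 0.21), and 90.9% of genes lay above 0. The spike-in RNAs, 38 rows added to each library as an outside standard, had a median difference of 0.01 log2, with 21 of the 38 higher in QKI7-dKH. Ribosomal RNA, held in 3 rows, took 11.4% and 5.86% of the endogenous signal in the QKI7-dKH libraries and 9.66% and 6.60% in the QKI7-WT libraries, so it varied more within groups than between them. How the spike-in was added is not given in the sources used here. More RNA per cell, more cells per unit of spike-in and a scaling offset therefore cannot be told apart. Every gene was tested both on the deposited scale and relative to the median gene of its library. For some genes below the difference is given on only one of these scales. Read counts are not in the table and the depth of each library is unknown.

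On the deposited scale, 465 genes (3.71% of those tested) were higher in QKI7-dKH and 6 (0.0478%) were lower at a limma adjusted p below 0.05, 3.75% in all. The differences of the 465 genes ran from 0.22 to 1.05 log2 with a median of 0.33. Their median signal over the 4 libraries was 70.6, against 25.9 for all genes. Shares called in the gene lists below were not matched for signal level. Of all called genes, 36 differed at least 1.5-fold, all of them higher, and 3 differed at least 2-fold. Both QKI7-dKH libraries lay above both QKI7-WT libraries for 54.6% of all genes and below both for 1.53%. Relative to the median gene, 32 genes (0.255%) were higher and 15 (0.12%) were lower, 0.375% in all. The 32 higher genes and 5 of the 15 lower ones were also called on the deposited scale. The number of calls depends on single libraries. Without QKI7-dKH replicate 1 or 2, 15 or 118 genes were higher on the deposited scale, and without QKI7-WT replicate 1 or 2, 77 or 174 were. The relative counts were then 10, 15, 21 and 23 higher and 5, 3, 8 and 5 lower in the same order of libraries. Scaling to library totals gave 38 higher and 17 lower, quantile normalisation gave 93 and 49, and a fit to the 4 libraries alone gave 235 and 30, and 0 and 0 relative to the median gene, where 306 and 247 genes had an unadjusted p below 0.05.

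**Figure D1:**
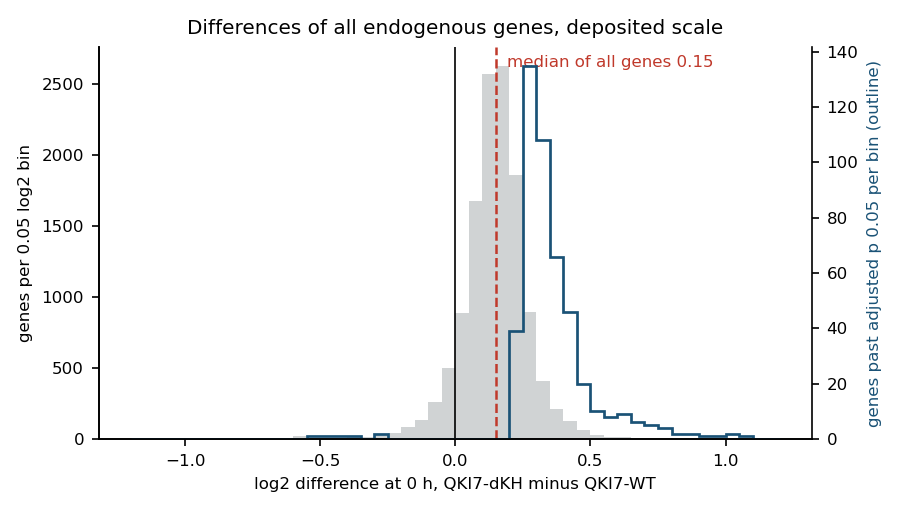
Histogram of the difference of QKI7-dKH minus QKI7-WT at 0 h in log2 signal for 12547 endogenous genes (grey, left axis), with the genes past a limma adjusted p of 0.05 as an outline (right axis, its own scale). The bulk of the grey distribution lies right of 0 with its median at 0.15 (dashed line), and 465 of the 471 called genes lie above 0.

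On the deposited scale the largest positive differences were those of SUGCT, MFAP5, SERPINB7 and MYL2, from 0.96 to 1.05 log2. 7 genes passed on both scales whichever of the 4 libraries was left out: SUGCT, MYL2, COL8A1, IGFBP7, CXCL14, ADAMTS12 and NOV, all higher in QKI7-dKH. SUGCT, a mitochondrial enzyme that activates glutarate with CoA (GRCh38 chromosome 7, 40134977 to 40860763), had a signal of 24.01 and 24.3 in QKI7-dKH, 11.9 and 10.4 in QKI7-WT, 16.4 and 14.4 in sgQKI+EV, and 14.7 and 13.4 in sgNS+EV. Both QKI7-dKH libraries thus stood above, and both QKI7-WT libraries below, all libraries of the other genotypes. The difference was 1.05 log2 (SE 0.11, limma adjusted p = 2.97e-05), and 0.90 (SE 0.12, limma adjusted p = 0.000962) relative to the median gene. MYL2, the regulatory myosin light chain of slow and ventricular muscle (chromosome 12, 110910819 to 110920722), had 52.0 and 48.6 in QKI7-dKH, 23.2 and 27.6 in QKI7-WT, 30.8 and 32.3 in sgQKI+EV, and 31.1 and 32.7 in sgNS+EV. It showed the same order, with the genotypes that carry EV between both add-back groups, and differed by 0.96 log2 (SE 0.11), or 0.82 relative to the median gene (SE 0.10).

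IGFBP7, a secreted protein that binds insulin-like growth factors (chromosome 4, 57030773 to 57110385), had a signal of 119.8 and 111.7 in QKI7-dKH against 69.0 and 66.5 in QKI7-WT. It had the lowest adjusted p on the deposited scale (limma, 4.38e-07) with a difference of 0.76 log2 (SE 0.06). CXCL14, a secreted chemokine (chromosome 5, 135570679 to 135579279), had 176.8 and 158.7 in QKI7-dKH, 97.4 and 102.5 in QKI7-WT, 138.9 and 149.8 in sgQKI+EV, and 118.5 and 123.3 in sgNS+EV. Its difference was 0.74 log2 (SE 0.08), with the EV genotypes again in between. NOV, also called CCN3, a matrix-associated signalling protein (chromosome 8, 119416306 to 119424353), had 87.6 and 83.6 in QKI7-dKH against 56.9 and 52.0 in QKI7-WT, a difference of 0.64 log2 (SE 0.09). ADAMTS12, a secreted metalloprotease (chromosome 5, 33523535 to 33892192), had 41.3 and 40.2 in QKI7-dKH, 25.2 and 25.1 in QKI7-WT, 29.2 and 27.3 in sgQKI+EV, and 26.4 and 25.4 in sgNS+EV. For ADAMTS12 the QKI7-WT values lay close to sgNS+EV and the QKI7-dKH values stood apart.

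COL8A1, the alpha 1 chain of the network-forming type VIII collagen (chromosome 3, 99638475 to 99799226), showed the other arrangement. Its signal was 25.3 and 25.2 in QKI7-dKH and 13.8 and 14.9 in QKI7-WT, while sgQKI+EV had 23.0 and 20.9 and sgNS+EV had 26.3 and 24.6. Here the QKI7-dKH libraries lay within the range of sgNS+EV and the QKI7-WT libraries were the low ones. The difference was 0.77 log2 (SE 0.10, limma adjusted p = 0.0001), or 0.63 relative to the median gene. ITGA2, the alpha 2 subunit of a collagen-binding integrin, was arranged likewise, with 33.2 and 32.4 in QKI7-dKH, 22.0 and 21.1 in QKI7-WT, 29.1 and 27.1 in sgQKI+EV, and 33.1 and 29.9 in sgNS+EV. So was CCL26, the chemokine eotaxin-3, in relation to sgNS+EV, with 82.2 and 78.9 in QKI7-dKH, 43.2 and 50.3 in QKI7-WT, 55.1 and 51.8 in sgQKI+EV, and 79.2 and 73.9 in sgNS+EV. The relative calls of ITGA2 and CCL26 were each kept in 1 of the 4 fits that left out a library. Their deposited calls were kept in 3 and 4 of those fits.

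**Figure D2:**
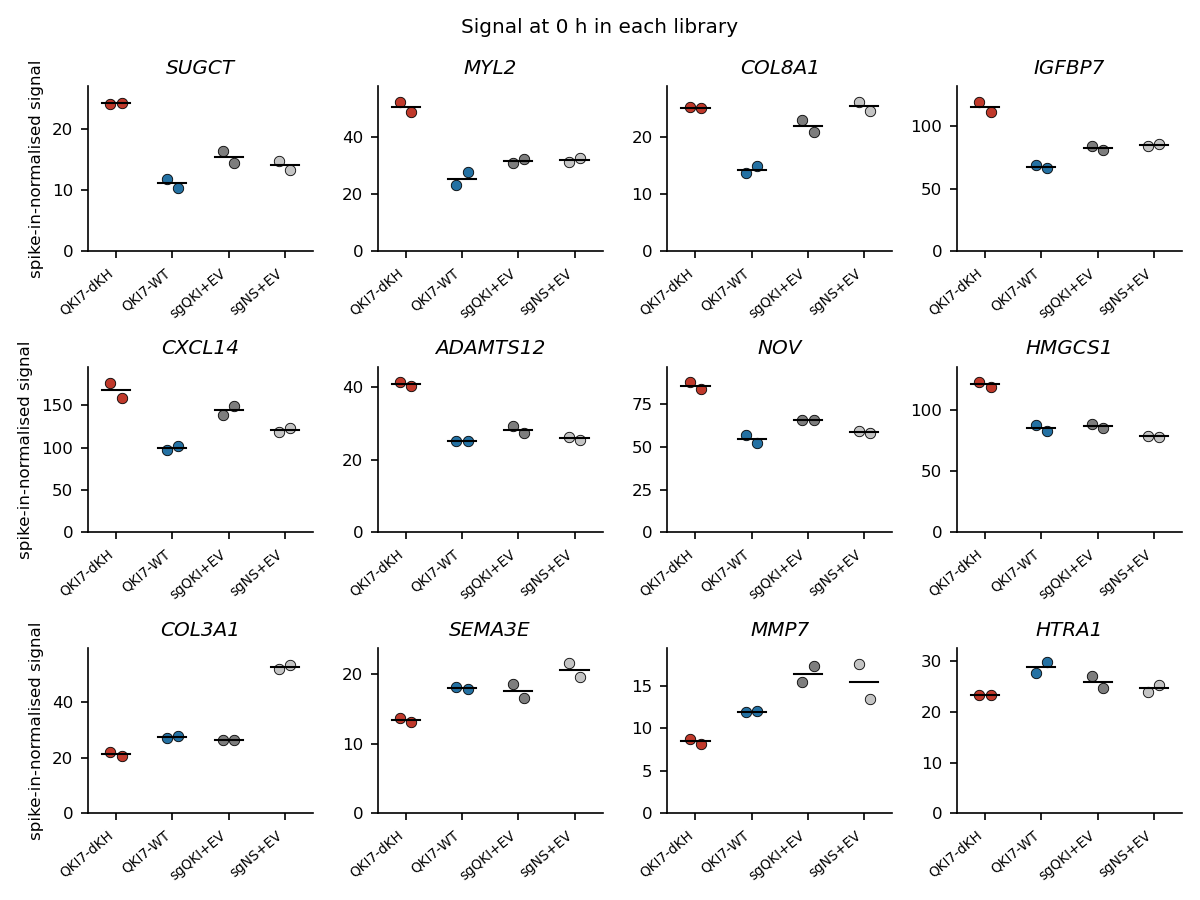
Deposited spike-in-normalised signal at 0 h of 12 named genes in each library (points) of QKI7-dKH, QKI7-WT, sgQKI+EV and sgNS+EV, with the group mean as a bar and a separate axis from 0 for each gene. SUGCT, MYL2 and ADAMTS12 stand highest in QKI7-dKH, COL8A1 is low in QKI7-WT alone, and COL3A1 is high in sgNS+EV, at 51.8 and 53.2, against at most 27.5 in any library with the QKI guide.

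Further genes that were higher on both scales follow. SERPINB7, a serine protease inhibitor of the serpin family, had a signal of 11.5 and 9.94 in QKI7-dKH against 4.30 and 5.45 in QKI7-WT (0.85 log2 relative to the median gene, SE 0.13). MFAP5, a component of elastic microfibrils, had 12.6 and 10.7 against 5.52 and 5.05 (0.86, SE 0.11), and it passed on the relative scale without any 1 of the 4 libraries. FST, or follistatin, which binds and blocks activins, had 79.0 and 77.4 in QKI7-dKH against 48.0 and 49.6 in QKI7-WT (0.52, SE 0.08). TNFRSF11B, or osteoprotegerin, the decoy receptor that blocks the osteoclast factor RANKL, had 21.3 and 21.6 in QKI7-dKH against 12.5 and 12.4 in QKI7-WT (0.59, SE 0.11). No library of QKI7-dKH overlapped one of QKI7-WT for these 4 genes. The same held for all 32 genes called higher relative to the median gene. Among all genes, 54.6% had both QKI7-dKH libraries above both QKI7-WT libraries. VAMP8, a vesicle fusion protein, differed by 0.71 log2 relative to the median gene, and FUCA1, a lysosomal fucosidase, by 0.53. LIF, a cytokine of the interleukin-6 family, differed by 0.35, and MET, the receptor for hepatocyte growth factor, by 0.32. PKP2, a desmosome plaque protein, differed by 0.30 and LIMA1, an actin-binding protein, by 0.27, the lowest of the 32. The relative calls of this paragraph other than MFAP5 were lost without at least 1 of the 4 libraries, and those of TNFRSF11B, LIF and PKP2 whichever library was left out. FST, FUCA1, MET, PKP2 and LIMA1 are among 18 of the 47 called genes that were added after their values were seen.

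The 15 lower genes had differences from −0.71 to −0.30 log2 relative to the median gene. COL3A1, the chain of fibrillar type III collagen (chromosome 2, 188974320 to 189012746), had a signal of 21.9 and 20.6 in QKI7-dKH, 27.1 and 27.5 in QKI7-WT, 26.2 and 26.4 in sgQKI+EV, and 51.8 and 53.2 in sgNS+EV. QKI7-WT lay next to sgQKI+EV, far under sgNS+EV, and QKI7-dKH was lower still, by 0.35 log2 (SE 0.07, limma adjusted p = 0.0141) on the deposited scale. Relative to the median gene its difference was −0.50 (SE 0.06), and it passed there without any 1 of the 4 libraries, as did SEMA3E, a secreted guidance factor of the semaphorin family, at −0.54 (SE 0.08). SEMA3E had 13.7 and 13.1 in QKI7-dKH against 18.1 and 17.8 in QKI7-WT. MMP7, the matrix metalloprotease matrilysin, had 8.75 and 8.21 in QKI7-dKH, 11.95 and 11.996 in QKI7-WT, 15.4 and 17.3 in sgQKI+EV, and 17.5 and 13.5 in sgNS+EV, so that both add-back groups were under the EV genotypes. Its difference of −0.60 (SE 0.10) did not pass when any 1 of the 4 libraries was left out.

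For other lower genes QKI7-WT was the highest of the 4 genotypes. TMSB15B, an actin-binding thymosin, had 14.6 and 13.2 in QKI7-dKH, 21.6 and 19.2 in QKI7-WT, 13.7 and 13.2 in sgQKI+EV, and 16.7 and 14.7 in sgNS+EV. HTRA1, a secreted serine protease, had 23.3 and 23.3 in QKI7-dKH, 27.7 and 29.9 in QKI7-WT, 27.0 and 24.8 in sgQKI+EV, and 23.998 and 25.4 in sgNS+EV. IL32, an inflammatory cytokine, had 16.6 and 14.9 in QKI7-dKH, 18.5 and 19.7 in QKI7-WT, 10.9 and 8.64 in sgQKI+EV, and 14.8 and 14.1 in sgNS+EV. Both add-back groups exceeded sgQKI+EV for IL32, and QKI7-WT did so by more. TGFBI, a secreted matrix protein induced by TGF-beta, and FHL1, a LIM-domain protein of muscle, differed by −0.41 and −0.40 log2 relative to the median gene. On the deposited scale FHL1 and HTRA1 passed (limma adjusted p = 0.0471 and 0.0485), whereas IL32 and TGFBI did not (0.141 and 0.0798). The relative calls of TMSB15B, HTRA1, TGFBI and FHL1 were lost without at least 1 of the 4 libraries. That of IL32 was lost whichever library was left out. Of the 6 calls of lower genes on the deposited scale, that of TMSB15B was kept in 1 of the 4 fits that left out a library, and the others were kept in 0.

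QKI response elements were looked for in annotated 3′ untranslated regions, on the transcript strand alone, as ACTAAC or ACTAAT with TAAC or TAAT at 1 to 20 bases on either side. Of 11195 measured genes with an annotated region, 15.5% held at least 1 match. The share was 15.8% among 437 genes called higher on the deposited scale, 6 of 31 (19.4%) among those higher relative to the median gene, and 4 of 14 (28.6%) among those lower. A match is a string of letters and not a shown binding site. The matches below, 1 per gene, come from QKI itself and from some of the called genes described above. They are given because they are the letters that a KH domain of this family is known to contact. The core and partner site are in capitals, 5′ to 3′ on the transcript strand, with GRCh38 positions.
QKI, chr6:163573784-163573801, plus strand: TAATaccaacctACTAAC
MFAP5, chr12:8646411-8646424, minus strand: ACTAACtcaaTAAC
COL8A1, chr3:99797886-99797909, plus strand: ACTAACtgctttgggcattcTAAT
IGFBP7, chr4:57031218-57031234, minus strand: TAATccaatccACTAAC
FHL1, chrX:136210776-136210788, plus strand: TAACaaaACTAAC
HTRA1, chr10:122514652-122514681, plus strand: TAACtgagtcatcatcttagtccaACTAAT
MFAP5, COL8A1 and IGFBP7 were higher in QKI7-dKH and FHL1 and HTRA1 lower, so matches stood in genes of both directions. FHL1 had 3 matches in 1405 bases, and QKI and COL8A1 had 2 each. G3BP1, which did not pass the test, had 2 and TNFRSF11B had 1, and these are not printed. SUGCT, with a region of 152 bases, had 0.

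Of 22 measured genes of cholesterol and isoprenoid synthesis, 11 rose on the deposited scale (50%, against 3.71% of all genes), 0 fell and 11 did not pass. The list median was 0.35 log2 beside 0.15 for all genes, and relative to the median gene it was 0.20, with HMGCS1 the 1 member that passed. HMGCS1, which makes HMG-CoA at the start of the mevalonate route (chromosome 5, 43289395 to 43313512), had a signal of 122.9 and 118.9 in QKI7-dKH, 88.0 and 83.3 in QKI7-WT, 88.2 and 85.2 in sgQKI+EV, and 79.0 and 78.1 in sgNS+EV. QKI7-WT and sgQKI+EV overlapped, and QKI7-dKH stood above all other libraries. The difference was 0.49 log2 (SE 0.06, limma adjusted p = 0.0001), or 0.35 relative to the median gene (SE 0.06, limma adjusted p = 0.00706). The deposited call was kept whichever of the 4 libraries was left out, and the relative call in 1 of the 4 fits.

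Along the route, ACAT2, which joins acetyl-CoA units for the first step, had a signal of 158.3 and 154.9 in QKI7-dKH against 111.8 and 121.1 in QKI7-WT. SQLE, the squalene epoxidase that opens the sterol branch, had 175.8 and 165.1 against 127.4 and 129.7. The deposited differences of ACAT2 and SQLE were 0.43 and 0.40 log2. MVK, FDPS, FDFT1, CYP51A1, MSMO1 and DHCR7 also passed, at 0.29 to 0.43. Of the 11 calls, 1 (HMGCS1) was kept whichever of the 4 libraries was left out, ACAT2 and SQLE were kept in 3 of those 4 fits, and 3 calls were kept in 0. In 18 of the 22 genes both QKI7-dKH libraries exceeded both QKI7-WT libraries, where 54.6% of all genes did so. The members without that separation were PMVK, MVD, TM7SF2 and EBP. Sterol uptake and its regulators had 2 of 14 genes higher, RNF145 and STARD4, beside 3.71% of all genes. Fatty acid synthesis had 2 of 18, ELOVL5 and LPIN1. Of these 4 calls STARD4 was kept in 1 of the 4 fits and the others in 0.

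The promoters of sterol genes are known to hold CCAAT boxes, which bind NF-Y, a partner of the sterol regulator SREBP. Of the 22 genes 17 (77.3%) matched a RefSeq promoter table for GRCh38.p14, too few for a share over the list. Across all 35116 promoters of that table, 34.6% held CCAAT on either strand. The windows of HMGCS1 and MSMO1, called members of the list, run from 250 bases before to 50 after the start and are printed 5′ to 3′ on the gene's strand. Capitals mark CCAAT or its reverse complement ATTGG, found 2 times in HMGCS1 and 4 times in MSMO1, and CYP51A1 had 0 matches in its window.
HMGCS1, chr5:43313363-43313662, minus strand: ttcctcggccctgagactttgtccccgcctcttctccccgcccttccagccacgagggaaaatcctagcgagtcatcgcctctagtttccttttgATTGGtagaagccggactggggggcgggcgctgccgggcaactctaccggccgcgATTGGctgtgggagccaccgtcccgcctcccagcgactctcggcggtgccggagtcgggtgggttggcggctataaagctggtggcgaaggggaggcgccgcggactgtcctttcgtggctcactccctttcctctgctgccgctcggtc
MSMO1, chr4:165327419-165327718, plus strand: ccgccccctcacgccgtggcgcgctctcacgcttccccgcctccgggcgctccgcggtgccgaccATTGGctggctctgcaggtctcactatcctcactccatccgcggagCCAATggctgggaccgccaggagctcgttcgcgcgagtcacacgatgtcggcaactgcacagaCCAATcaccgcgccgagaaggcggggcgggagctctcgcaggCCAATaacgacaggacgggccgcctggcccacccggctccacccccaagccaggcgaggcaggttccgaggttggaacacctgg
HMGCS1 has a second window in the table, with 0 matches.

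Collagens and other matrix proteins were the other list with many calls, and they did not all move one way. Of 31 measured members, 14 rose on the deposited scale (3.71% of all genes did) and 1, COL3A1, fell (0.0478% of all genes). The list median was 0.29 log2 beside 0.15 for all genes. Relative to the median gene 5 rose (MFAP5, COL8A1, ECM1, THBS1 and COL11A1) and 2 fell (COL3A1 and TGFBI). Of all genes, 0.255% rose and 0.12% fell on that scale. THBS1, the matrix glycoprotein thrombospondin-1, had a signal of 728.6 and 676.2 in QKI7-dKH, 446.5 and 480.6 in QKI7-WT, 589.5 and 582.8 in sgQKI+EV, and 566.6 and 604.4 in sgNS+EV. ECM1, a secreted matrix glycoprotein, had 93.2 and 83.8 in QKI7-dKH, 52.8 and 59.8 in QKI7-WT, 79.3 and 81.3 in sgQKI+EV, and 69.3 and 74.7 in sgNS+EV. For both genes QKI7-WT was the lowest group and QKI7-dKH the highest, and both passed on the deposited scale whichever library was left out. Relative to the median gene, the call of THBS1 was kept in 2 of the 4 fits that left out a library and that of ECM1 in 1. Members called on the deposited scale alone were FN1 (fibronectin), FBN1 and FBN2 (fibrillins), LAMB1 and LAMC1 (laminin chains), COL4A1 and COL4A2 (basement membrane collagen), COL12A1 and LOXL2, with differences from 0.26 to 0.40 log2. Each of these calls was lost without at least 1 of the 4 libraries, and those of FBN1 and LAMC1 whichever library was left out. COL1A1, the major bone collagen, had 521.5 and 465.7 in QKI7-dKH against 367.9 and 452.8 in QKI7-WT, and its difference of 0.27 did not pass (limma adjusted p = 0.115).

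Matrix proteases and their inhibitors had 7 of 18 members higher and 2 lower, MMP7 and HTRA1, on the deposited scale. Of all genes, 3.71% were higher and 0.0478% lower there. PLAT, a plasminogen activator, PLAUR, the urokinase receptor, TIMP2, a metalloprotease inhibitor, and MMP14, a membrane-bound metalloprotease, rose by 0.28 to 0.35 log2, close to the median of all called higher genes. The calls of PLAT, PLAUR, TIMP2 and MMP14 were each lost without at least 1 of the 4 libraries. Proteases were thus found among both the higher and the lower genes. Integrin subunits had 3 of 18 higher, ITGA2, ITGB5 and ITGA6, beside 3.71% of all genes. Each of these integrin calls was lost without at least 1 of the 4 libraries.

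**Figure D3:**
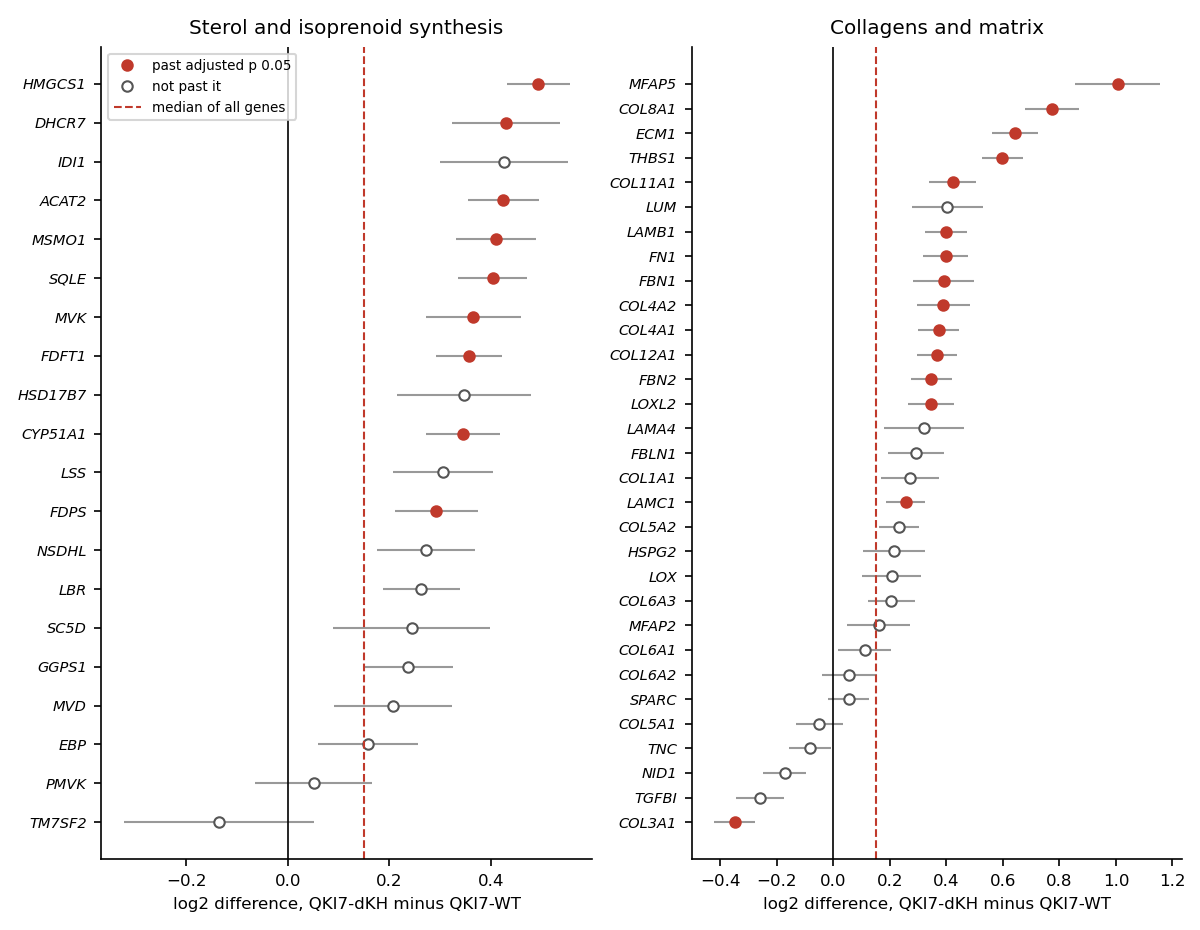
Difference of QKI7-dKH minus QKI7-WT at 0 h in log2 signal, with its SE, for measured genes of 2 lists, on the deposited scale. The filled points (limma adjusted p below 0.05) are 9 of the 20 sterol and isoprenoid genes drawn and 15 of 31 matrix genes, and the dashed line is the median of all genes at 0.15.

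Several lists held calls on the deposited scale, where 3.71% of all genes were higher, and 0 relative to the median gene. In the lists of this paragraph no deposited call was kept in all 4 fits that left out a library, and those of the heat shock chaperones and the proteasome were kept in 0. Targets of YAP and TAZ, the growth-linked coactivators of the Hippo pathway, had 5 of 21 higher (MYOF, ANKRD1, CTGF, CRIM1 and AMOTL2, at 0.30 to 0.42 log2), and Hippo pathway components had 5 of 29, YAP1 at 0.34 and TEAD1 at 0.28 among them. Targets of p53 had 5 of 29 higher, led by RRM2B, a ribonucleotide reductase subunit, at 0.51. Endoplasmic reticulum chaperones and unfolded protein response genes had 7 of 28 higher, at 0.28 to 0.35, with HSPA5, the main chaperone of that compartment, at 0.29. Vesicle coat and transport genes had 4 of 30, heat shock chaperones 4 of 29 and the proteasome 4 of 31. Metallothioneins and zinc transporters had 3 of 6 higher, with MT1E, a metal-binding protein, at 691.1 and 634.7 in QKI7-dKH against 462.1 and 525.4 in QKI7-WT.

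Replication-dependent histones had 3 of 15 higher on the deposited scale (HIST1H1C, HIST1H4H and HIST1H2BK), beside 3.71% of all genes. Interferon-stimulated genes had 3 of 23, IFI6 and IFI44 among them. Neither list held a call relative to the median gene. No deposited call of either list was kept in all 4 fits that left out a library. In other lists the share called was near or under that of all genes. On the deposited scale DNA replication had 1 of 44 higher (PCNA), mitosis 0 of 37, the respiratory chain 1 of 58 (SDHD), glycolysis and hypoxia response 1 of 27 (P4HA1), ATF4 targets 0 of 26 and NRF2 targets 0 of 28. Nuclear long non-coding RNAs had 0 of 7. Cytosolic ribosomal protein genes had 0 of 76, with differences from 0.01 to 0.14 log2 and a median of 0.08, under the all-gene median.

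In lists tied to QKI or to its known functions, 0% to 7.69% of members were called on the deposited scale, beside 3.71% of all genes. Relative to the median gene 0 members of these lists were called. Of 16 measured genes with a published link to QKI 1 rose, CCND1 (cyclin D1), with 269.7 and 250.8 in QKI7-dKH against 198.4 and 219.5 in QKI7-WT. The call of CCND1 was kept in 2 of the 4 fits that left out a library. CDKN1B, a cell cycle inhibitor, had 57.8 and 58.5 in QKI7-dKH and 60.9 and 48.1 in QKI7-WT, and the groups overlapped. The STAR family and other RNA-binding regulators had 0 of 23 called, stress granule proteins 1 of 39 (EIF4G2), mRNA decay factors 1 of 49 (CNOT11) and m7G and cap factors 0 of 19. SR proteins and hnRNPs had 3 of 39 (SRSF1, SRSF3 and PTBP2). PTBP2, the neuronal polypyrimidine-tract splicing regulator, had a signal of 64.2 and 62.5 in QKI7-dKH, 45.9 and 38.5 in QKI7-WT, 54.2 and 52.9 in sgQKI+EV, and 29.7 and 28.5 in sgNS+EV. QKI7-WT therefore lay between sgQKI+EV and sgNS+EV for PTBP2, and QKI7-dKH lay above sgQKI+EV. Its difference of 0.58 log2 (SE 0.12) passed on the deposited scale (limma adjusted p = 0.0111) and not relative to the median gene (0.43, limma adjusted p = 0.0547), and it was kept in 1 of the 4 fits that left out a library.

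The summed signals of markers of the line overlapped between the compared groups. Of 11 mesenchymal and osteoblast-lineage markers 6 were in the table, VIM, CDH2, SPARC, RUNX2 and COL1A1 among them, and their summed signal was 5334 to 5788 in QKI7-dKH and 4862 to 5388 in QKI7-WT. Of 9 epithelial markers 4 were in the table (KRT8, KRT18, EPCAM and CLDN4), with sums of 1254 to 1375 and 1144 to 1293. None of these 10 genes passed the test on either scale, and of the 6 blood and 4 endothelial markers none was in the table. Both QKI7-dKH libraries lay above both QKI7-WT libraries in 3 of the 6 mesenchymal and 1 of the 4 epithelial markers (54.6% of all genes). They lay below both in 1 epithelial marker (1.53% of all genes). Actin and contractile genes had 3 of 30 higher on the deposited scale (3.71% of all genes) and 1, FHL1, lower (0.0478%). MYL2 stood out, and CALD1 and CNN3 rose by 0.36 and 0.32 log2. The deposited calls of CALD1, CNN3 and FHL1 were kept in 0 of the 4 fits that left out a library. Relative to the median gene MYL2 and FHL1 passed, and CALD1 and CNN3 did not.

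The called genes were also placed against the EV genotypes, with values relative to the library median. Both QKI7-dKH libraries lay above all 6 other libraries at 0 h in 23 of the 32 higher genes (5.65% of all genes), and both QKI7-WT libraries lay below all 6 others in 22 of them (2.98% of all genes). Among the 15 lower genes, QKI7-dKH lay below all others in 9 (3.69% of all genes) and QKI7-WT above all others in 9 (3.08%). The mean of sgQKI+EV fell between both add-back groups in 26 of the 32 higher genes and 9 of the 15 lower ones, against 33.5% of all genes. The mean of sgNS+EV did so in 23 and 7, against 21.3% of all genes. The called genes were chosen from these same 0 h values, and the compared groups did not overlap in any of the 32 or the 15. That choice favours ranks beyond all 6 others, so the shares over all genes are not a like baseline. Genes with a large gap between the compared groups are also more likely to have another mean inside it. These shares describe the arrangement only, and they were not tested. SUGCT and MYL2 are examples in which both EV genotypes lay between the add-back groups.

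Separate libraries of the same cell lines from the chase gave a further view of these genes. Relative to the median gene, all 32 higher genes had a positive difference at both 4 h and 8 h, where 29.6% of all genes did. At 4 h 27 of the 32 passed the limma test (0.885% of all genes were called higher there), and at 8 h 21 did (0.614%). Of the 15 lower genes, 13 were negative at both times (20.8% of all genes), 7 passed at 4 h (0.327%) and 12 at 8 h (0.335%). The exceptions were TMSB15B, at 0.11 and −0.16 log2, and SLC25A20, a mitochondrial carnitine carrier, at 0.03 and 0.08. MYL2 differed by 0.82 log2 relative to the median gene at 0 h, 0.98 at 4 h and 1.03 at 8 h, and SUGCT by 0.90, 1.04 and 0.77. HMGCS1 differed by 0.35, 0.28 and 0.15, and no longer passed at 8 h (limma adjusted p = 0.34). COL3A1 differed by −0.50, −0.50 and −0.57. No gene passed the limma test of a change in the relative difference between 0 h and 4 h, where 812 genes had an unadjusted p below 0.05, or between 0 h and 8 h, where 253 did. The chase libraries share their cell lines with the 0 h libraries, so they do not stand for new lines. The tests at 0 h, 4 h and 8 h also share the same estimate of each gene's spread. Genes called at 0 h are thus more likely to pass at 4 h and 8 h, and the shares over all genes are not a like baseline.

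**Figure D4:**
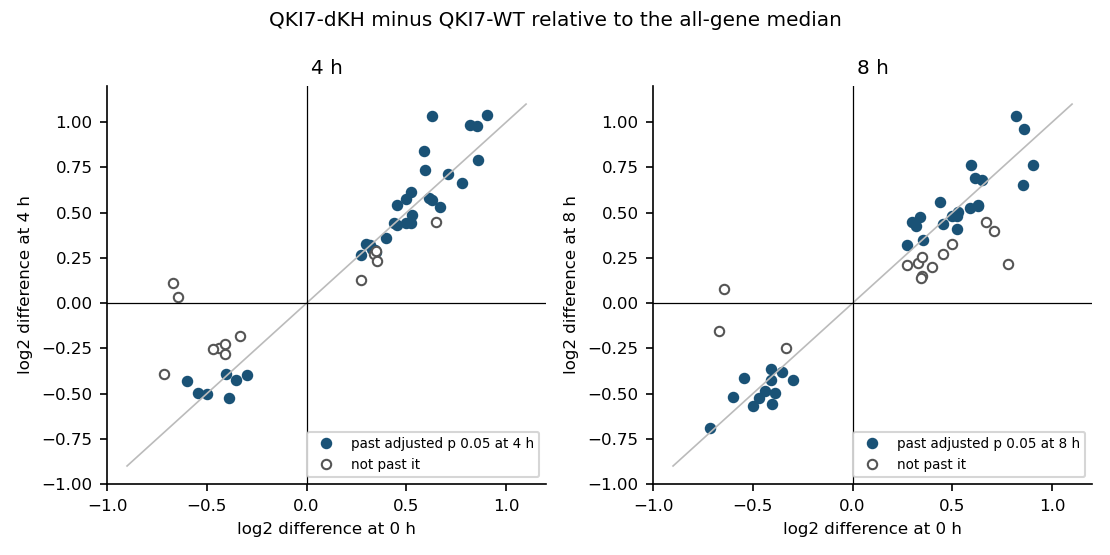
Difference of QKI7-dKH minus QKI7-WT relative to the all-gene median, in log2, at 4 h (left panel) and 8 h (right panel) on the vertical axis against the same difference at 0 h, for the 47 genes called at 0 h. All 32 higher genes stay above 0 at both times, filled points passed the limma test at the later time, and the diagonal marks equal differences.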

How the data were processed

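The authors deposited 1 table of 12585 rows and 24 libraries, with values as a linear signal scaled to ERCC spike-in RNA. That reading rests on the values, since the 38 ERCC rows sum to between 11485 and 11940 in every library. Per the submitters' processing notes, STAR and RSEM were used with the GRCh38 build; no versions are given. The unit before scaling and the form of the scaling are not given in the sources used here. Replicate libraries at 0 h correlated across genes with r = 0.9967 (QKI7-dKH) and 0.9934 (QKI7-WT); genes are not independent replicates. Of the endogenous rows, 38 repeat an earlier row, none of them among the called genes.

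Values were analysed as log2 of the deposited signal plus 1, so folds of low genes are understated. Requiring a signal of 1 or more in 2 or more libraries removed 0 rows. limma 3.58.1 in R 4.3.3 was fitted with a mean-variance trend to 12 group means over 24 libraries (12 residual degrees of freedom, prior 9.0 on the deposited scale and 4.8 on the relative one). P-values are two-sided and Benjamini-Hochberg adjusted over 12547 genes, with a threshold of 0.05. The second fit subtracted each library's median log2 value. The median SE of a difference was 0.11 log2, and 0.09 on the relative scale. Differences are QKI7-dKH minus QKI7-WT.

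Members and the 36 gene lists were chosen with earlier results of these data known, and no list was tested as a set. Named genes are QKI, METTL1, WDR4, G3BP1, the 15 highest and 15 lowest deposited and the 10 highest and 10 lowest relative differences among called genes whose groups did not overlap and whose mean signal was 5 or more, up to 4 called members per list, and the genes called on both scales with any 1 library left out. Other genes, among them all further list members, were named after their values were seen. Symbols were used as deposited (11726 current, 605 older, 216 unmatched). Positions and 3′ untranslated regions come from GENCODE 29 and promoters from RefSeq. Some genes that enter the fits and the counts of lists are not reported here by name.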

Additional observations from a re-analysis of the deposited data

Results flagged for a closer look

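On the deposited scale the difference of QKI7-dKH minus QKI7-WT was not the same at 4 h as at 0 h. By the interaction test in limma, 2004 genes had a lower difference at 4 h than at 0 h and 8 had a higher one, with a median change of −0.24 log2. Relative to the median gene of each library 0 genes passed that test in either direction, and 812 had an unadjusted p below 0.05. The median log2 signal of the QKI7-dKH libraries at 4 h was 4.19 and 4.19, and that of the QKI7-WT libraries at 4 h was 4.43 and 4.24, the pair with the lowest replicate correlation of the 12 groups (r = 0.9889). The part of that pair in the 2004 and 8 genes was not tested.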

How the results depend on the processing

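Counts are of genes higher and lower in QKI7-dKH, 465 and 6 on the deposited scale and 32 and 15 relative to the median gene. A limit of 1.5-fold gave 36 and 0, and 13 and 4. The 4 libraries alone gave 235 and 30, and 0 and 0, and the 8 libraries at 0 h gave 353 and 5, and 17 and 10. Library totals gave 38 and 17, with an all-gene median of 0.0098 log2, and quantile normalisation gave 93 and 49, with 3.13e-05. Leaving out 1 library gave 15 to 174 and 0 to 1, and 10 to 23 and 3 to 8, with an all-gene median of 0.10 to 0.20, and in these fits the lone library is assumed to vary like the other groups. With the replicate number as a block the counts were 557 and 7, and 35 and 18. Deviations of same-numbered libraries correlated at −0.42, so the numbers are not shown to pair the libraries. Crossed pairing in the 4 libraries gave 3606 and 79, and 133 and 139, the same fit with numbers as labelled 33 and 18, and 26 and 42, and QKI passed relative to the median under the crossed pairing (−0.26, limma adjusted p = 0.0441). That pairing was added after the data were seen, as was leaving out the QKI7-WT libraries at 4 h, which gave 1466 and 18, and 81 and 36. A pseudocount of 0.1, no filter and a mean signal of at least 5 kept all counts within 1.5-fold. Of genes that did not pass, QKI ran from −0.30 to 0.076 when 1 library was left out, METTL1 from −0.076 to 0.34 and WDR4 from −0.052 to 0.28, and relative to the median METTL1 ran from −0.19 to 0.15 and WDR4 from −0.20 to 0.13. METTL1 turned to −0.011 with library totals and −0.016 with quantile normalisation, and WDR4 to −0.027 and −0.025. The cause of these changes was not tested. Depth is unknown, and 2 libraries a group limit the precision.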
